A study of Danio rerio with 6 samples.

Results

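The 10 genes described here encode enzymes of sterol synthesis, taken in pathway order from hmgcs1 at the entry to mevalonate to dhcr7 at the last steps of cholesterol formation. They were chosen by gene symbol from the deposited table of translation efficiencies, with earlier results of these data known. All 10 were present among the 21392 genes of the table. Translation efficiency sets how many footprints of ribosomes a gene's mRNA carried, that is, mRNA pieces shielded by ribosomes during nuclease digestion, against how much of that mRNA there was. Footprints are scaled to gene length, and the mRNA is taken to be, so that gene length would cancel in the ratio. It is a ratio without a unit, and it is neither an amount of mRNA nor of protein.

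Zebrafish embryos labelled as mycn mutants were set against AB embryos, the wild-type strain. Both were kept in Danieau buffer and collected 72 h after fertilization, and the labels name no other treatment. The labels give neither the mutant allele nor the number of pooled embryos, nor whether replicates came from separate clutches, so every p-value rests on a spread between samples that may be technical only. Each genotype was represented by 2 Ribo-seq samples, in which footprints are sequenced, and by 1 RNA-seq sample. With 1 RNA-seq sample a genotype, both ratios of a genotype may rest on the same mRNA measurement, and the error of that measurement is then not in the spread between replicates. Embryos were dissociated before lysis and the values are averages over all tissues, so a difference in the cell types that carry an mRNA and a difference within cells cannot be told apart. The labelled material, embryonic cells, could not be checked against markers, since a ratio gives no abundance.

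Cholesterol is built from acetyl-CoA. The mevalonate branch makes isoprenoid units and joins them into farnesyl diphosphate, squalene synthase condenses this into squalene, and the squalene is oxidized, cyclized to lanosterol and trimmed to cholesterol by enzymes that sit mostly in the endoplasmic reticulum membrane. In vertebrates the genes of the pathway are transcribed together by the SREBP factors, which are released from that membrane when sterols are scarce. In a fish embryo, sterols come both from the yolk and from synthesis, and they serve membranes, bile acids and steroid hormones.

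In mycn mutants the translation efficiency of 9 of the 10 enzymes was above that of wild type, and that of mevalonate kinase, mvk, was below it. Of all tested genes, 51.3% had a log2 difference above 0. In 8 of the 9, both mutant values lay above both wild-type values, and for mvk both lay below. Over all 17601 genes with a ratio above 0 in every library, 23.1% had groups that did not overlap with mutants higher, and 21.6% with mutants lower. The median log2 difference of the 10 enzymes, mutant minus wild type, was 0.57 on the log2(ratio + 0.1) scale, against 0.013 over all tested genes. The offset of 0.1 keeps low ratios from dominating and makes differences of low ratios smaller than they are. No member passed the threshold in the fit of all tested genes (limma with Benjamini-Hochberg adjustment, threshold 0.05), and no gene of the table did, which is 0% of those tested. At an unadjusted p under 0.05, limma gave 5 members with higher values in mutants (hmgcs1, fdft1, sqlea, cyp51 and sc5d), where 6.78% of all tested genes were, and 1 with lower values, mvk, where 4.71% were. An exact two-sided permutation test of 2 samples against 2 cannot give a p below 0.333, so none was run for single genes.

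The median ratio of the 10 enzymes was 0.757 and 0.674 in wild type and 1.27 and 1.01 in mutants. All genes tested had medians of 0.762 and 0.765 in wild type and 0.779 in each mutant library. In wild type 5 members were above the library's median in replicate 1 and 2 were in replicate 2, whereas 8 were in each mutant library. The ratios are relative to the other genes of a library, so a change shared by all mRNAs could not be seen.

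**Figure D1:**
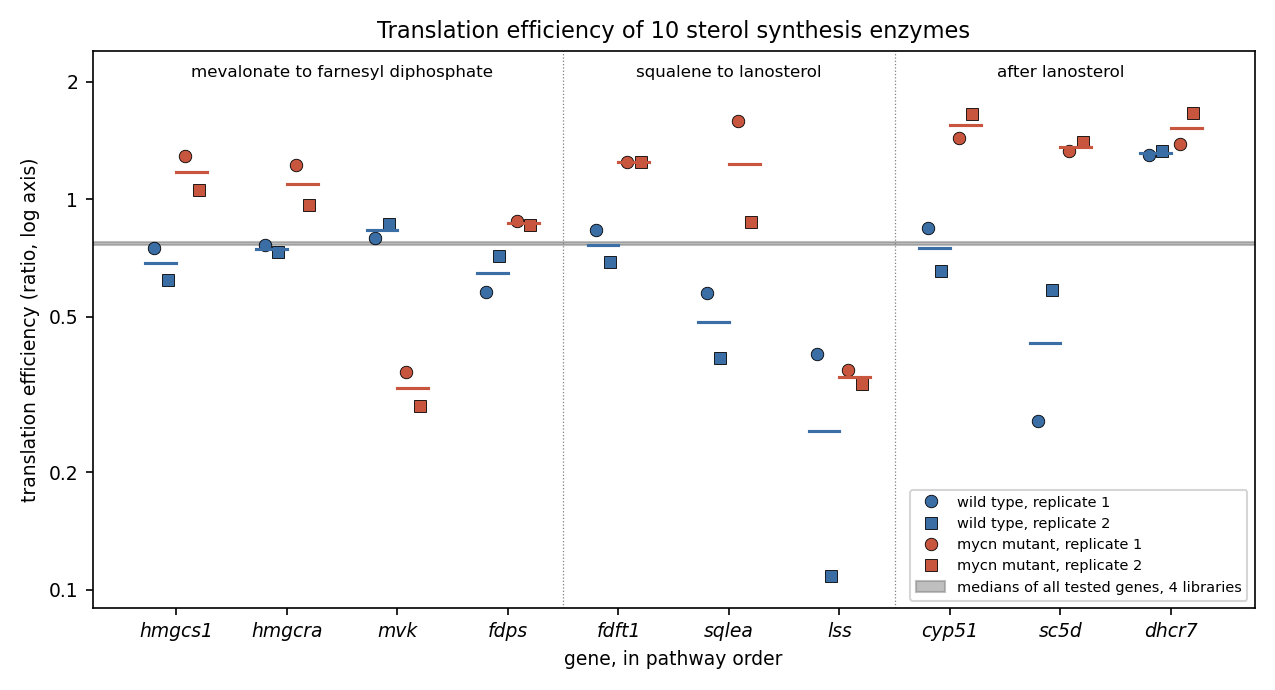
Translation efficiency (ratio without unit, log axis) of the 10 enzymes in pathway order, with 1 point for each of the 4 libraries and a short line at each genotype's mean. Mutant points lie above wild-type points for 8 genes, below them for mvk, and between them for lss.

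The first 4 members carry the mevalonate branch. Hmgcs1, the cytosolic HMG-CoA synthase that commits acetyl units to the pathway, had ratios of 0.751 and 0.623 in wild type and 1.29 and 1.06 in mutants. Both mutant values were higher, and the groups did not overlap. Its log2 difference, mutant minus wild type, was 0.70 (SE 0.22, 95% interval 0.089 to 1.302, limma unadjusted p = 0.0333, adjusted p = 0.399). None of its 4 values was shared with another gene of the same library.

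Hmgcra, an HMG-CoA reductase, which catalyses the rate-limiting step and is the target of statins, had ratios of 0.763 and 0.732 in wild type and 1.22 and 0.969 in mutants. Both mutant values were higher, and the wild-type replicates lay closer together than the mutant ones. Hmgcra had a log2 difference of 0.49 (SE 0.21, 95% interval -0.093 to 1.07, limma adjusted p = 0.494). Its paralog hmgcrb had ratios of 0.578 and 0.5301 in wild type and 0.468 and 0.839 in mutants. The mutant values of hmgcrb lay on both sides of the wild-type values. The sources used here do not give how reads matching both paralogs were counted.

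Mvk, which phosphorylates mevalonate, was the only one of the 10 with lower values in mutants. Its ratios were 0.798 and 0.866 in wild type and 0.361 and 0.296 in mutants. The highest mutant value was 0.453 times the lowest wild-type value. This made a log2 difference of -1.12 (SE 0.20, 95% interval -1.68 to -0.57, limma unadjusted p = 0.0046, adjusted p = 0.285). Mvk had the smallest p of the 10 enzymes, and 1.6% of all tested genes had a smaller one. In the wild-type libraries mvk stood at the percentiles 53.3 and 58.8 of the tested genes, and in the mutant libraries at 9.81 and 6.71. All 4 of its values were shared, to 9 significant digits, with between 8 and 19 other genes of the same library, as happens with quotients of small whole numbers. Shared values were common in the table, making up 64.7% to 67.1% of the values above 0 in the 4 libraries. The read counts behind the ratios were not analysed here, so their counting error is unknown.

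The 3 enzymes that follow mvk in the pathway, like hmgcrb above, were outside the rule for naming genes and were chosen after their values were seen. Phosphomevalonate kinase, pmvk, had ratios of 0.423 and 2.297 in wild type and 2.17 and 1.18 in mutants, so both mutant values lay between the wild-type ones. Mvda, the decarboxylase that makes isopentenyl diphosphate, had 0.245 and 0.291 in wild type and 0.629 and 0.155 in mutants. Its mutant values lay on both sides of the wild-type ones. Idi1, which isomerizes isopentenyl diphosphate, had 0.914 and 0.896 in wild type and 1.01 and 1.295 in mutants, with both mutant values higher. Every value of pmvk and of mvda was shared with another gene of its library, as were 2 values of idi1. Of the 3 enzymes, none had an unadjusted p under 0.05 (limma), and whether any differed from mvk was not tested.

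Fdps, the farnesyl diphosphate synthase from which sterols and other isoprenoids branch, had ratios of 0.5803 and 0.717 in wild type and 0.881 and 0.861 in mutants. Both mutant values were higher, and the groups did not overlap. A log2 difference of 0.38 was found for fdps (SE 0.20, 95% interval -0.17 to 0.94, limma adjusted p = 0.557).

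The middle 3 members make lanosterol. Fdft1, squalene synthase, the first enzyme used for sterols alone, had ratios of 0.834 and 0.692 in wild type and 1.24 in both mutant libraries. The mutant values were nearly equal and above both wild-type values. Other genes of the same library shared 3 of its 4 values, and that of wild-type replicate 1 was shared with 25. For fdft1 the log2 difference was 0.64 (SE 0.20, 95% interval 0.090 to 1.196, limma unadjusted p = 0.0318, adjusted p = 0.393).

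Sqlea, the squalene epoxidase that adds the first oxygen, had ratios of 0.577 and 0.391 in wild type and 1.58 and 0.876 in mutants. The groups did not overlap, but the mutant replicates were far apart. For sqlea it was 1.15 (SE 0.37, 95% interval 0.15 to 2.16, limma unadjusted p = 0.0332, adjusted p = 0.399). All 4 values were shared with 3 to 6 other genes of their library.

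Lss, which cyclizes oxidosqualene to lanosterol, was the member whose groups overlapped. Its ratios were 0.401 and 0.109 in wild type and 0.366 and 0.337 in mutants, so the mutant values lay between the wild-type ones. The value of 0.109 stood at the percentile 0.597 of tested genes in wild-type replicate 2. Its log2 difference was 0.48 with a wide interval (SE 0.49, 95% interval -0.87 to 1.83, limma adjusted p = 0.751), and it was -0.15 without wild-type replicate 2. In the other 3 libraries lss stood at the percentiles 9.21 to 13.6.

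The last 3 members act after lanosterol. Cyp51, the cytochrome P450 that removes a methyl group from lanosterol, had ratios of 0.845 and 0.655 in wild type and 1.44 and 1.65 in mutants. The lowest mutant value was 1.702 times the highest wild-type value. Cyp51 had a log2 difference of 0.96 (SE 0.23, 95% interval 0.34 to 1.58, limma unadjusted p = 0.0126, adjusted p = 0.331). None of its values was shared with another gene of the library, as for hmgcs1. In a fit of only the 2626 genes without shared values, limma gave cyp51 an adjusted p = 0.0736 and hmgcs1 one of 0.116. In that smaller fit 36 genes passed, neither of these among them.

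Sc5d, a desaturase that puts a double bond into the sterol ring, had the largest difference among the 10. Its ratios were 0.2704 and 0.587 in wild type and 1.33 and 1.399 in mutants. The lowest mutant value was 2.26 times the highest wild-type value, although the wild-type replicates were far apart. This gave a log2 difference of 1.54 (SE 0.36, 95% interval 0.55 to 2.53, limma unadjusted p = 0.0123, adjusted p = 0.3303), and 1.9% of all tested genes had a larger one. Its values were shared with 22 and 22 other genes in the wild-type libraries and with 7 and 95 in the mutant libraries.

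Dhcr7, the reductase that forms cholesterol from its direct precursor and is mutated in human Smith-Lemli-Opitz syndrome, had the highest wild-type ratios of the 10. They were 1.299 and 1.33 in wild type and 1.38 and 1.66 in mutants. The groups did not overlap, but the nearest values of the genotypes were 1.33 and 1.38. Dhcr7 had a log2 difference of 0.19 (SE 0.21, 95% interval -0.38 to 0.77, limma adjusted p = 0.763).

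In wild type the order of mean ratios ran from dhcr7 at 1.31 ± 0.0199 (SD, n = 2), through mvk, fdft1, cyp51, hmgcra, hmgcs1 and fdps, down to sqlea, sc5d and lss at 0.255 ± 0.206. Dhcr7 stood clear of mvk, and fdps stood clear of sqlea. Every other pair of neighbours in this order had overlapping values. Only neighbours were compared, and sc5d, placed below sqlea, reached 0.587 in wild-type replicate 2, above the fdps value of 0.5803 in replicate 1. In mutants the order began with cyp51 at 1.55 ± 0.153 (SD, n = 2), dhcr7 at 1.52 ± 0.199 and sc5d at 1.36 ± 0.0502, in which neighbours overlapped. Sc5d stood clear of fdft1, hmgcra of fdps, and fdps of lss, and the order ended with lss at 0.351 ± 0.0202 and mvk at 0.329 ± 0.0461. Sqlea, placed between sc5d and fdps, had mutant ratios of 1.58 and 0.876 and overlapped both. Mean ratios were above 1 for 1 member in wild type, dhcr7, and for 7 in mutants.

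Averaged over members, the mean log2(ratio + 0.1) of the 4 mevalonate enzymes was -0.29 and -0.27 in wild type and -0.066 and -0.27 in mutants, a difference of 0.11. The genotypes overlapped, mvk being lower in mutants and the other 3 enzymes higher. The 3 enzymes from squalene to lanosterol had -0.55 and -1.21 in wild type and 0.025 and -0.27 in mutants, a difference of 0.76. The 3 enzymes after lanosterol had -0.34 and -0.14 in wild type and 0.57 and 0.74 in mutants, a difference of 0.896. In the later 2 groups the genotypes did not overlap. Whether the 3 groups of enzymes differed from each other was not tested.

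**Figure D2:**
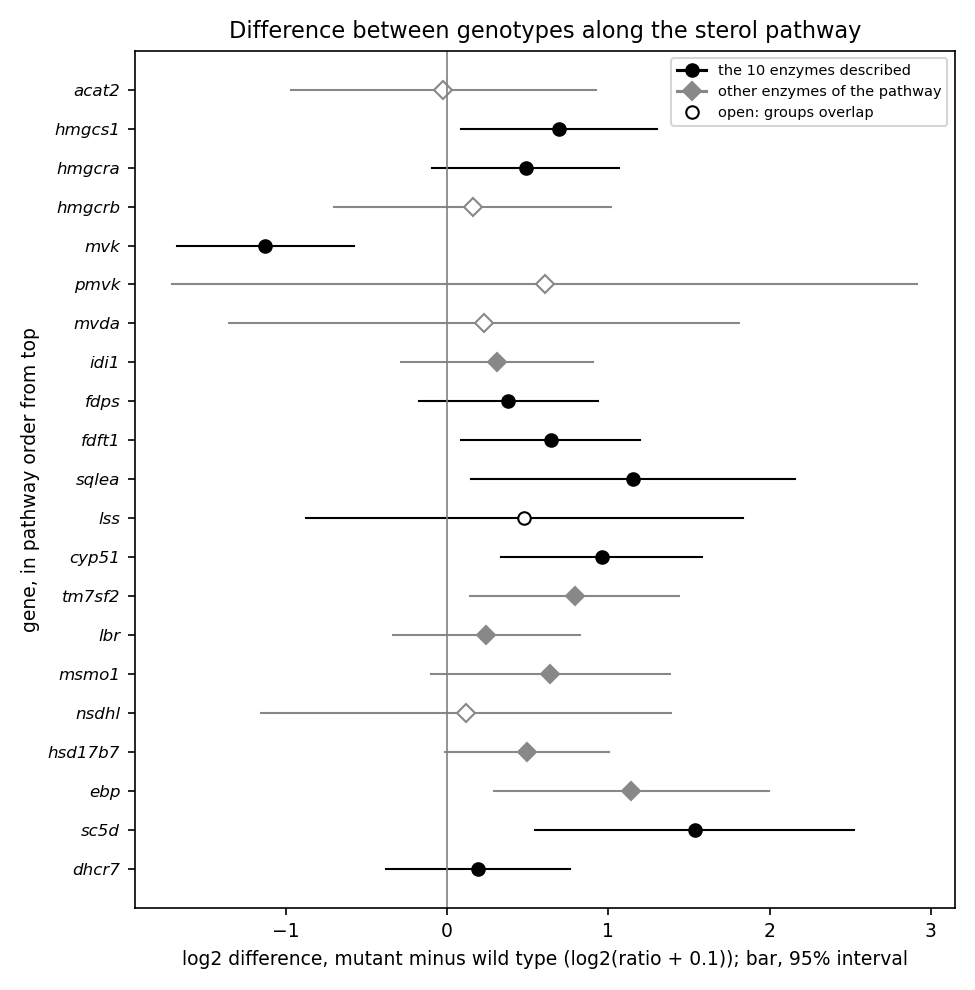
Log2 difference, mutant minus wild type, on the log2(ratio + 0.1) scale, with its 95% interval, for the 10 enzymes (black circles) and 11 other enzymes of the pathway (grey diamonds) in pathway order from the top. Open symbols mark genes whose genotypes overlap. The points of all 11 enzymes from sqlea downwards lie to the right of 0, and that of mvk lies furthest to the left. Among those 11, the intervals of lss, lbr, msmo1, nsdhl, hsd17b7 and dhcr7 cross 0.

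A further 11 enzymes of the pathway were examined. Of these, 10 had higher mean log2 values in mutants and 1, acat2, did not, with 6 whose groups did not overlap and mutants were higher and none with mutants lower. None passed the adjusted threshold, and 2 had an unadjusted p under 0.05 (limma), both with higher values in mutants. The shares over all tested genes were 23.1% and 21.6% for groups that did not overlap, higher and lower, and 6.78% and 4.71% for the unadjusted p. The median log2 difference of the 11 was 0.31, and over the alternatives tried on them it ran from 0.17 to 0.497.

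Ebp, the isomerase that acts just before sc5d, had 0.642 and 0.367 in wild type and 1.08 and 1.33 in mutants, a log2 difference of 1.14 (SE 0.31, limma adjusted p = 0.358). Tm7sf2, a sterol reductase of the endoplasmic reticulum, had 0.452 and 0.334 in wild type and 0.675 and 0.829 in mutants. Msmo1, an oxidase that acts after cyp51 in the removal of methyl groups, had 1.26 and 0.854 in wild type and 1.55 and 1.81 in mutants. In all 3 genes both mutant values were higher than both wild-type values. All 4 values of ebp and of tm7sf2 were shared with other genes of their library.

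Hsd17b7, which reduces a ketone during the removal of the methyl groups, had 0.633 and 0.698 in wild type and 0.967 and 0.991 in mutants. The genotypes did not overlap (log2 difference 0.496, SE 0.19, limma adjusted p = 0.442). Over the 21 enzymes together, 19 had higher and 2 lower mean log2 values in mutants, with a median log2 difference of 0.49. For the 10 enzymes from acat2 to fdft1 the count was 8 higher and 2 lower, and for the 11 from sqlea to dhcr7 it was 11 higher. Of all tested genes, 51.3% were higher. Genotypes overlapped in 4 enzymes of the first part, acat2 at -0.021 among them, and in 2 of the second. Without overlap, 5 of the first part were higher in mutants and 1 lower, and 9 and 0 of the second. Over all tested genes, 23.1% did not overlap with mutants higher and 21.6% with mutants lower. This cut was not among the planned groups, and whether the parts differed was not tested.

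The genes that sense sterols and process SREBP had differences in both directions. Of 14 tested, 7 were higher and 7 lower in mutants, with a median log2 difference of 0.0064 that took either sign over the alternatives (-0.049 to 0.058). Srebf2, the SREBP factor known mainly for sterol genes, had ratios of 0.567 and 0.741 in wild type and 0.848 and 1.02 in mutants. Scap, the escort that carries SREBP to the Golgi, went the other way, with 0.8200 and 0.861 in wild type and 0.646 and 0.4599 in mutants.

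The groups did not overlap in either gene, and neither passed (limma adjusted p = 0.537 for srebf2 and 0.489 for scap). Mbtps2, the protease that makes the second cut in SREBP, had 0.533 in both wild-type libraries and 0.659 and 0.9898 in mutants (limma adjusted p = 0.5295). The gene of this list with the smallest p was ubxn8, an endoplasmic reticulum protein with a UBX domain whose link to sterol sensing is uncertain. Its ratios were 1.74 and 1.89 in wild type and 0.511 and 0.314 in mutants (log2 difference -1.93, SE 0.27, limma unadjusted p = 0.00186, adjusted p = 0.249). All 4 values of ubxn8 were shared with other genes of their library.

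Of 26 genes of cholesterol uptake, transport and esterification, the mean log2 value of 15 was higher and that of 11 lower in mutants. Their median log2 difference was 0.043, and it was -0.0018 without wild-type replicate 1. None passed, and 3 had an unadjusted p under 0.05 (limma), all higher in mutants, where 6.78% of all tested genes were. The groups of 7 did not overlap with mutants higher, and those of 6 with mutants lower, where 23.1% and 21.6% of all tested genes were. Abcg5, a subunit of the sterol exporter of gut and liver, had ratios of 0.7301 and 0.3302 in wild type and 4.69 and 1.92 in mutants. Stard4, a cytosolic sterol carrier, had 0.483 and 0.327 against 1.31 and 0.855.

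Soat1, which esterifies cholesterol, had 0.282 and 0.574 in wild type and 0.835 and 1.71 in mutants. Abcg1, an exporter to lipoproteins, had 0.091 and 0.247 against 0.358 and 1.76. All values of these 4 genes were shared with other genes of their library. The groups did not overlap in any of the 4, and none passed the adjusted threshold (limma adjusted p from 0.338 to 0.492). The next 3 genes were outside the rule for naming genes and were chosen after their values were seen. Abcg8, the other subunit of the exporter that holds abcg5, had 1.83 and 4.13 in wild type and 1.79 and 1.099 in mutants. Soat2, the second esterifying enzyme, had 2.31 and 2.09 against 1.69 and 1.25. Both genes were lower in mutants without overlap, and neither passed (limma adjusted p = 0.562 and 0.495). Every value of both was shared with another gene of its library. Ldlra, a receptor that takes up lipoproteins, had 1.03 and 0.9402 in wild type and 0.854 and 1.31 in mutants, so its genotypes overlapped.

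The isoprenoid branches that also start from farnesyl diphosphate had 6 genes higher and 8 lower of 14, with a median log2 difference of -0.036 that was 0.032 without wild-type replicate 2. None had an unadjusted p under 0.05 (limma). Pdss1, a subunit of the enzyme that builds the tail of coenzyme Q, had 0.685 and 0.738 in wild type and 1.11 and 0.985 in mutants. Rce1a, a protease that trims prenylated proteins, had 1.02 and 1.38 against 0.849 and 0.522. The groups of both genes did not overlap. Pdss2, the partner of pdss1, had 0.715 and 0.831 in wild type and 0.438 and 0.718 in mutants, and fntb, a farnesyltransferase subunit, had 0.694 and 0.516 against 0.578 and 0.213, with overlap in both.

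Genes that turn cholesterol into bile acids and steroids were split, with 6 higher and 6 lower of 12 tested and 5 more left out because a library was at 0. Cyp7a1, the rate-limiting enzyme of bile acid synthesis, had ratios of 0.895 and 0.928 in wild type and 4.17 and 5.13 in mutants. The lists here hold no gene with a smaller p (log2 difference 2.22, SE 0.22, limma unadjusted p = 0.000458, adjusted p = 0.199). All 4 values of cyp7a1 were shared with other genes of their library. Cyp8b1, which acts later in the same synthesis, had 0.283 and 0.279 in wild type and 0.538 and 0.496 in mutants. Both genes had groups that did not overlap. In the other direction, star, which moves cholesterol into mitochondria for steroid synthesis, had 1.16 and 0.786 against 0.677 and 0.208, and slc27a2a, an acyl-CoA synthetase, had 0.998 and 0.861 against 0.783 and 0.562. The median log2 difference of the 12 was -0.049, and it ran from -0.118 to 0.044 over the alternatives that kept all 12. The 1 gene of the list without shared values, slc27a2a, had a log2 difference of -0.43.

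**Figure D3:**
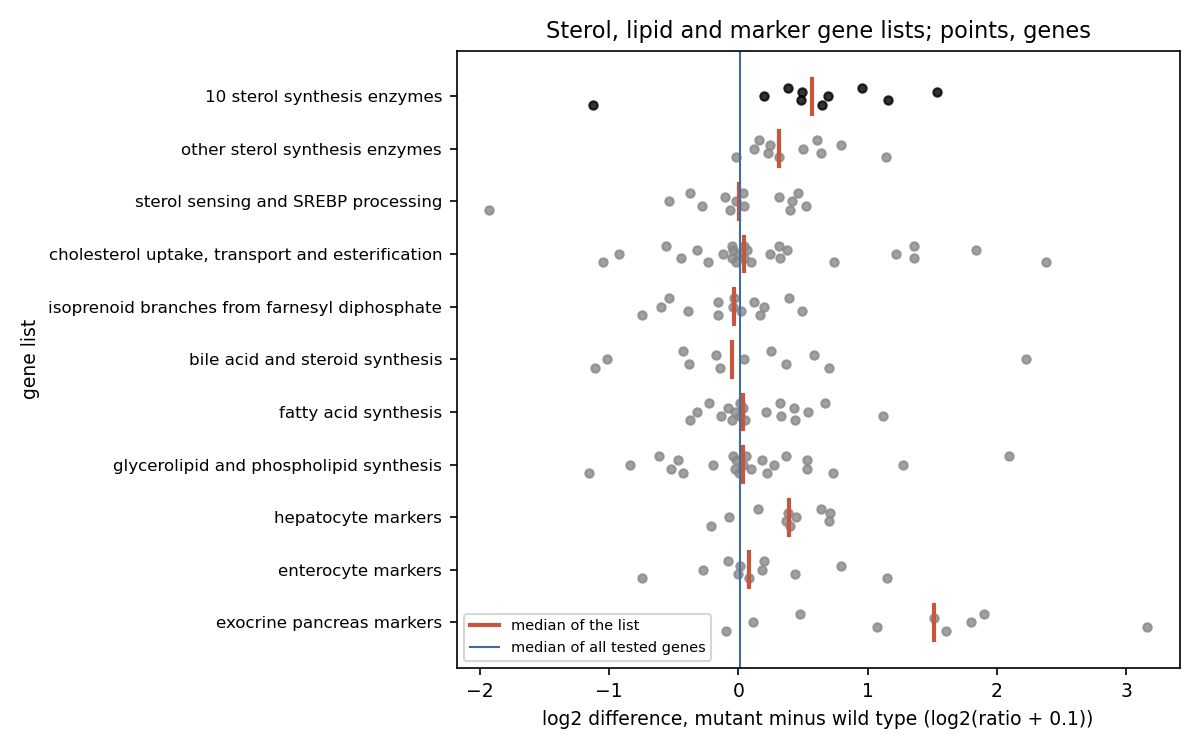
Log2 difference, mutant minus wild type (log2(ratio + 0.1) scale), of each tested gene in the lists, with a red line at each list's median and a blue line at the median of all tested genes. The medians of the 10 sterol enzymes and of the 11 other sterol enzymes lie at 0.57 and 0.31, those of the sterol sensing, transport, isoprenoid, bile acid, fatty acid and glycerolipid lists within 0.05 of 0, and those of hepatocyte and exocrine pancreas markers at 0.39 and 1.51.

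Most markers of hepatocytes and of the exocrine pancreas also had higher mean ratios in mutants. Of all tested genes, 51.3% had a log2 difference above 0. Of 10 tested hepatocyte markers, 8 were higher, with a median log2 difference of 0.39. Their summed ratio, which is not an amount, was 10.97 and 11.5 in wild type and 13.5 and 16.47 in mutants. Ttr, at 0 in both mutant libraries, was not among the 10. Apoa2, a lipoprotein component, had 0.716 and 0.706 in wild type and 1.22 and 1.21 in mutants, and fgg, a fibrinogen chain, had 0.759 and 0.632 against 1.14 and 1.13. A1cf, an RNA-binding factor of liver and gut, had 1.98 and 2.03 against 2.91 and 3.85, and serpina1, a protease inhibitor, had 0.498 and 0.481 against 0.661 and 0.746. The 2 lower markers, outside the rule for naming genes, were cp and fga, and the genotypes of neither overlapped. Cp had 1.23 and 1.12 against 0.970 and 1.03. Fga, another fibrinogen chain, had 1.249 and 1.239 against 1.122 and 1.238.

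Of 9 exocrine pancreas markers, 8 were higher, with a median of 1.51, where 51.3% of all tested genes were higher. The groups of 7 did not overlap with mutants higher, where 23.1% of all tested genes were. At an unadjusted p under 0.05 (limma), 6 were higher in mutants, where 6.78% of all tested genes were. Their summed ratio, which is not an amount, was 6.51 and 6.798 against 17.4 and 24.1. Ela2, at 0 in mutant replicate 1, was not among the 9. Each of the 9 had values shared with other genes of its library, and the counting error behind these ratios is unknown. Of 11 enterocyte markers 8 were higher, with a median of 0.078 that was -0.0039 after quantile normalization. The summed ratio of the 11 was 16.1 and 16.4 against 17.995 and 17.8, and slc15a1b, at 0 in mutant replicate 2, was not among them. No marker passed the adjusted threshold in the fit of all tested genes (limma adjusted p of at least 0.222). The fit of the 2626 genes without shared values held 6 hepatocyte markers, 4 enterocyte markers and no exocrine pancreas marker. In it 36 genes passed, among them 1 of these markers, the hepatocyte marker apoa2 (limma adjusted p = 0.04905). The part of these organs in the difference of the sterol enzymes was not tested.

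The spread between replicates of the members was near that of other genes. Their median gap between replicates on the log2(ratio + 0.1) scale was 0.25 in wild type and 0.20 in mutants, against 0.30 and 0.31 over all tested genes. Genes without shared values had gaps of 0.13 and 0.15. The median size of the genotype difference was 0.67 for the members and 0.295 for all tested genes.

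With 1 library left out at a time, mvk stayed below 0 and 8 members stayed above 0 in all 4 fits, while lss changed sign in 1. Where the groups of a gene do not overlap, leaving out 1 library cannot change the sign. Only lss could therefore change, and the constant signs of the other members add no evidence. Without wild-type replicate 2 its log2 difference was -0.15, and without wild-type replicate 1 it was 1.11. Sc5d was at 1.09 without wild-type replicate 1, and at 1.98 with that library kept and wild-type replicate 2 left out. Sqlea was at 0.76 without mutant replicate 1, and at 1.55 when mutant replicate 2 was left out. With all libraries 5 members had higher values at an unadjusted p under 0.05 (limma), where 6.78% of all tested genes were. Fewer members did in each fit with 1 library left out. In these fits 1 group is a single library, assumed to vary like the other group, so no counts are given for them.

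**Figure D4:**
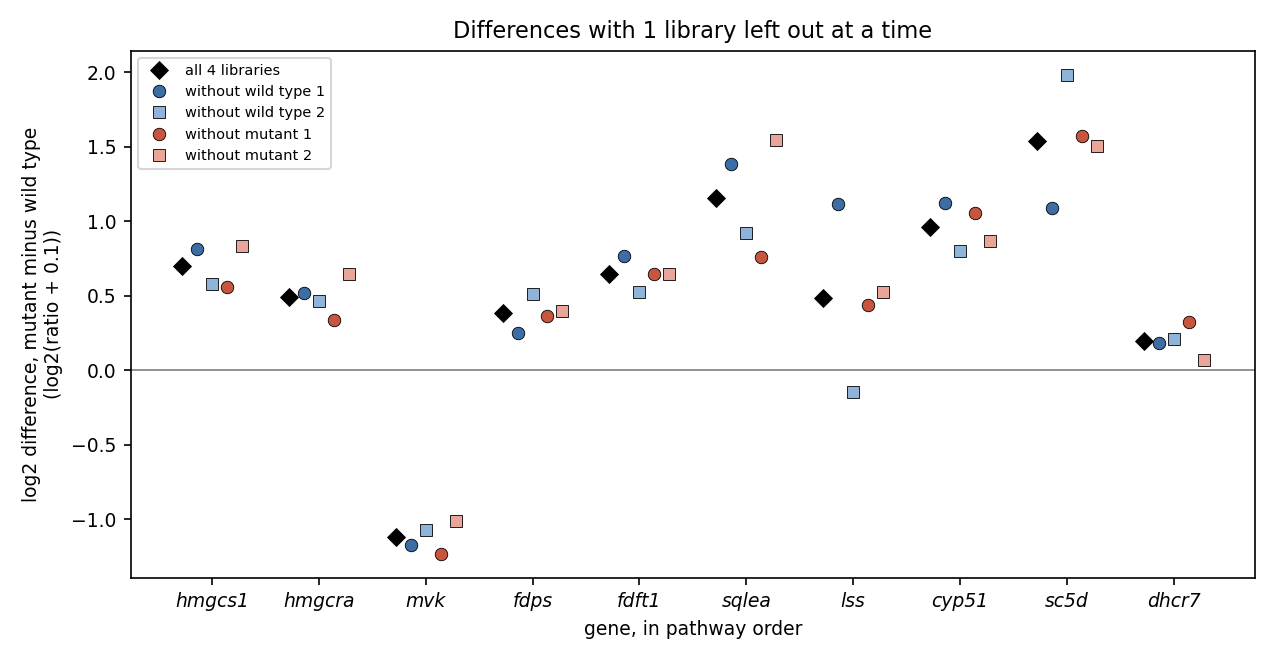
Log2 difference, mutant minus wild type (log2(ratio + 0.1) scale), of the 10 enzymes with all 4 libraries (black diamonds) and with 1 library left out at a time (coloured points). Each gene keeps its side of 0 except lss, which lies at -0.15 without wild-type replicate 2 and is the only one whose groups overlap. Genes without overlap cannot change sides here.

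Among the 2624 other genes without shared values, the 3 whose 4 ratios lay nearest to the median profile of the members were ap1g2, pdk2a and apoa2. Nearness was the root mean square difference of log2(ratio + 0.1) over the 4 libraries, and it was 0.066, 0.13 and 0.13. Ap1g2, an adaptor subunit of vesicle coats, had ratios of 0.763 and 0.725 in wild type and 1.18 and 1.03 in mutants.

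Some members overlap a named neighbour in the RefSeq annotation of the assembly GRCz12tu, a newer assembly than that of the files. Hmgcra overlaps arsk, and dhcr7 overlaps nadsyn1. Hmgcs1, cyp51 and dhcr7 each overlap an annotated locus without a gene name. No source used here gives the strand setting of the counting, so reads of such pairs may not have been told apart. Nadsyn1 had ratios of 0.711 and 0.578 in wild type and 0.574 and 1.84 in mutants, and arsk was at 0 in wild-type replicate 2.

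Mycn itself had ratios of 0.446 and 0.302 in wild type and 0.429 and 0.342 in mutants. The genotypes overlapped, and a ratio of footprints to mRNA does not show whether the mutation lowered either, so it did not check the labels.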

How the data were processed

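Translation efficiency was measured in 4 Ribo-seq samples, 2 of each genotype. The deposited values are ratios that the authors made by dividing, per the file headers, an FPKM of footprints by what is taken to be an FPKM of mRNA; the sources used here name no denominator sample, filter or offset. The submitters' processing notes list the tools STAR, featureCounts and limma and the build GRCz11. Depth is unknown, since no counts were analysed.

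Genes at 0 in any library (3791 of 21392) were left out of the test; all 10 enzymes passed. Limma (version 3.58.1, R 4.3.3) was run on log2(ratio + 0.1) with a trend in variance and genotype as the only term; p-values were two-sided and adjusted by Benjamini-Hochberg over 17601 genes, with a threshold of 0.05. The fit was tested on simulated data drawn independently for each sample with the variances of the fit. The simulation did not imitate a shared mRNA measurement or shared values, so it cannot show their effect on the p-values. Of 177 symbols in 10 further lists, 158 were matched in the table and 149 tested; 1 other gene is not reported here. The 10 enzymes and the lists were chosen with earlier results of these data known. All 10 were named. Of each other list, the 4 genes with the smallest p were named, or up to 6 where more than 4 had an unadjusted p under 0.05, together with the 3 genes nearest in profile; enterocyte and pancreas markers are given by counts and medians only. All 10 symbols matched the RefSeq gene table. Alternatives were other pseudocounts, filters, normalizations, variance models, left-out libraries and a replicate block.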

Additional observations from a re-analysis of the deposited data

How the results depend on the processing

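No member passed the adjusted threshold under any of the 13 alternatives. The table as a whole had 0 genes past it in the reported fit, 6 with a pseudocount of 1, 177 with no filter, 2 with a mean ratio of at least 0.2 and 36 among genes without shared values; the reported fit had 2023 genes at an unadjusted p under 0.05. The members' median log2 difference of 0.57 was 0.304 with a pseudocount of 1, 0.83 over the 2 members without shared values, and 0.497 to 0.788 with 1 library left out. With a pseudocount of 1 the mean differences were 0.346 from squalene to lanosterol and 0.466 after lanosterol; over the 1 mevalonate enzyme without shared values, hmgcs1, it was 0.695. With 1 library left out the mean differences were 0.0068 (mutant replicate 1 left out) to 0.213 (mutant replicate 2 left out) for the mevalonate enzymes, 0.432 to 1.09 for the next group and 0.797 to 0.996 for the last. The difference of lss was -0.15 without wild-type replicate 2 and 1.11 without wild-type replicate 1; the cause was not tested. The gaps between replicates 1 and 2 were hardly correlated between the genotypes (correlation of deviations 0.0097 over all tested genes). This does not show whether samples with the same replicate number were paired, since a shift shared by a whole library leaves the correlation unchanged. With the replicate block, 0 genes and 0 members passed, and 4 members in place of 5 had higher values at an unadjusted p under 0.05. The share of all tested genes in that fit is not given here, and the 6.78% above belongs to the fit without a block. Quantile normalization and median centring moved the members' median to 0.528 and 0.540. The depth behind every ratio is unknown.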

Other observations

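Other lipid genes had medians near that of all tested genes. Of 19 tested genes of fatty acid synthesis, the mean log2 value of 12 was higher in mutants and that of 7 lower. Their median log2 difference was 0.032. It ran from 0.0014 to 0.1036 over the alternatives that kept all 19 genes, and was 0.166 over the 4 genes without shared values. Elovl1a, an elongase of very long chains, had ratios of 0.373 and 0.468 in wild type and 1.28 and 0.822 in mutants. Elovl5, an elongase of polyunsaturated chains, had 1.498 and 1.95 against 2.61 and 2.96, and hsd17b12b, a reductase of the elongation cycle, had 0.711 and 0.813 against 1.12 and 1.18. Fasn, fatty acid synthase, had 0.5502 and 0.501 against 0.797 and 0.697, with no shared value in any library. The groups of these 4 genes did not overlap, and none passed (limma adjusted p from 0.347 to 0.5004). The desaturase genes scd and scdb were outside the rule for naming genes. Scd was at 0 in both mutant libraries and at 0.749 and 1.02 in wild type, both shared with other genes, and it was not tested. Of all genes, 7.79% and 9.98% were at 0 in the mutant libraries. Scdb had 0.563 and 0.465 in wild type and 0.403 and 0.700 in mutants, with overlap.

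Of 23 genes of glycerolipid and phospholipid synthesis, 13 were higher and 10 lower, with a median of 0.032 that took either sign over the alternatives (-0.124 to 0.148). Mogat2, which makes diacylglycerol from absorbed fat, had 0.479 and 1.08 in wild type and 2.68 and 4.396 in mutants. Lpin1, a phosphatidate phosphatase, had 0.5996 and 0.589 against 1.02 and 1.0797, and agpat2, an acyltransferase of the same route, had 0.633 and 0.701 against 1.004 and 1.02. In the other direction, cept1a, which makes phosphatidylcholine and phosphatidylethanolamine, had 2.92 and 3.21 against 1.76 and 1.58, and pcyt1ba, an enzyme of the phosphatidylcholine route, had 0.906 and 1.84 against 0.475 and 0.584. None of these passed (limma adjusted p from 0.3205 to 0.4196). All values of mogat2, cept1a and pcyt1ba were shared with other genes of their library.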
